A study of Homo sapiens with 16 samples.

Results

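A set of 37 interferon-stimulated genes was followed by RNA sequencing in NCI-H1944, a cell line from a human lung adenocarcinoma. The set was defined by 38 gene symbols and a mean of at least 1 CPM (counts scaled to the library total) over all 16 libraries. It is 37 of the 60612 genes in the count table, and of the 13880 that reach that level. GMPR, at a mean of 0.538 CPM, fell short of the threshold, and the members just inside it were SLC15A3 at 2.27 CPM and RTP4 at 3.31 CPM. The 4 lines sequenced are all NCI-H1944. SCR is the control, whose genotype is labelled WT. The STING and MAVS lines carry a guide against that gene and are labelled as knockouts, and DKO is labelled as a knockout of both. Each line was given DMSO, the solvent control, or BAY-1217389 (MPS1i), an inhibitor of the kinase MPS1, at 100 nM. The agent stayed on for 48 h and was then removed, and RNA was taken after a further 24 h without it. Each of the 8 groups has 2 libraries. Whether the lines were clones or pools, and whether the libraries of a group came from separate cultures, is not given in the sources used here. The comparison asks how far the response of these genes to a pulse of MPS1i depends on STING, on MAVS or on both.

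Interferon-stimulated genes are switched on when secreted interferon binds its receptor and JAK kinases activate a transcription factor complex that holds IRF9 and binds a promoter sequence built on paired GAAA motifs. Interferon genes themselves are induced when cytosolic DNA is read by cGAS and STING, or when viral-type RNA is read by RIG-I-like receptors and MAVS, and both routes pass through the kinase TBK1 and the factor IRF3. MPS1, encoded by TTK, holds dividing cells at the spindle checkpoint, and cells that divide without it missegregate chromosomes and can form micronuclei. The members described here are antiviral effectors and regulators of many kinds, among them membrane proteins, nucleases, helicases and nuclear body proteins.

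Library totals ran from 19893784 to 49769938 counts. Levels are in CPM on library totals scaled by TMM, and changes are log2 fold changes with their standard error after ±, from edgeR's quasi-likelihood test over 17950 genes. A change was called at a Benjamini-Hochberg adjusted p under 0.05 over all genes of that contrast. STING1 RNA stood at 8.27 ± 0.0317 CPM (SD, n = 2) in SCR under DMSO, 3.74 ± 0.0572 in the STING line and 4.86 ± 0.0459 in DKO. MAVS RNA was not lower in the MAVS line (195 ± 0.893 CPM against 186 ± 4.27 in SCR), and RNA levels of an edited gene do not report its protein. Of 9 epithelial and lung markers, KRT8, KRT18, KRT7, CDH1 and EPCAM were present and KRT19, NKX2-1, NAPSA and SFTPB were at or near 0. The summed leukocyte list lay between 1.07 and 3.07 CPM in all libraries, the endothelial list between 0.973 and 3.07, and the fibroblast list between 26.3 and 48.3. The fibroblast sum came almost wholly from DCN, LUM and COL1A1. COL1A2 was at or near 0, and group means of PDGFRB reached at most 0.331 CPM. In each line both treated libraries lay above both DMSO libraries for the leukocyte sum (2.56 and 2.73 against 1.68 and 1.73 CPM in SCR) and the fibroblast sum (35.2 and 41.3 against 26.3 and 26.8 CPM in SCR). For the endothelial sum this held in SCR (2.33 and 2.23 against 0.973 and 1.47 CPM), STING and MAVS, and the treatments overlapped in DKO. The part of these cell type markers in the results was not tested.

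The promoter windows of 6 members are shown because they cover the contrasting responses described below, and because they let the paralogs DDX60 and DDX60L be compared. Each holds 250 bases before and 50 after the RefSeq transcription start on GRCh38.p14, written 5′ to 3′ on the strand of the gene. Capitals mark GAAA, any 2 bases, GAAA on either strand, and in CD68, which has no such match, the AP-1-like TGANTCA.
IFI44L (chr1:78620198-78620497, + strand): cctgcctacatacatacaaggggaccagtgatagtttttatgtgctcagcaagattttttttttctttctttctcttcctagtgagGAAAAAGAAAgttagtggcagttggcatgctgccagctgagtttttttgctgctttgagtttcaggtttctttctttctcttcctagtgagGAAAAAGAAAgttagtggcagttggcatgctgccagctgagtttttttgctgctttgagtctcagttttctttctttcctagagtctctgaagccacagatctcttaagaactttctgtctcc
IFI27 (chr14:94110486-94110785, + strand): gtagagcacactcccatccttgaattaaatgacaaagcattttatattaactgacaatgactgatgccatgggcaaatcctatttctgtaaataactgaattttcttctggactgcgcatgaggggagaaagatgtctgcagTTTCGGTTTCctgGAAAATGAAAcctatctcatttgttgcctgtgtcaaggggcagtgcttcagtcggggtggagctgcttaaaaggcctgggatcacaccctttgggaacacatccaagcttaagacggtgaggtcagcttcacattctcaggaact
DDX60 (chr4:168318703-168319002, - strand): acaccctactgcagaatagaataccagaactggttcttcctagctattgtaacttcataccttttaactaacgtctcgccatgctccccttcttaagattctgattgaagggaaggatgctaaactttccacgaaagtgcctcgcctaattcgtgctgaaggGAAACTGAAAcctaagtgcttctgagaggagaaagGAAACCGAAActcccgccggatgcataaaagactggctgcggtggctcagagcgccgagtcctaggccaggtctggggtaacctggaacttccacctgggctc
DDX60L (chr4:168480443-168480742, - strand): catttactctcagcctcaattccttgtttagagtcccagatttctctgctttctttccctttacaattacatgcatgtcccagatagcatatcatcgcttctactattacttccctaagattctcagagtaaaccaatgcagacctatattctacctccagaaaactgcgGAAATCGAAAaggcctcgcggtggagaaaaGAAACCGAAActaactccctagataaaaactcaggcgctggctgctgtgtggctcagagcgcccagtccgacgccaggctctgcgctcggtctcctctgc
ISG20 (chr15:88638766-88639065, + strand): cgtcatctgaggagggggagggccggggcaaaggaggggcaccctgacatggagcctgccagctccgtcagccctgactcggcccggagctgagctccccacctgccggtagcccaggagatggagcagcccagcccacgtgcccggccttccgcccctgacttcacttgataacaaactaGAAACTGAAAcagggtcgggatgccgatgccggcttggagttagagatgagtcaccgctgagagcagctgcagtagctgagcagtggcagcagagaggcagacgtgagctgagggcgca
CD68 (chr17:7579388-7579687, + strand): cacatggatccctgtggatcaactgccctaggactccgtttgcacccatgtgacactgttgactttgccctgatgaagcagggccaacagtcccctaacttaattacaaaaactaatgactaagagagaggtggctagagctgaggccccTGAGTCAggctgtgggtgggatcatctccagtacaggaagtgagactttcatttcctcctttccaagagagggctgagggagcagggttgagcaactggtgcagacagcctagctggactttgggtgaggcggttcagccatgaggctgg

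In IFI44L, both matches sit inside an 85-base stretch that occurs as 2 exact copies 91 bases apart. The longest exact repeat in the other 5 windows was 9 bases. DDX60 and DDX60L each hold 2 matches, which start 88 and 53 bases before the start site in DDX60 and 80 and 50 bases before it in DDX60L. IFI27 holds 1 match on each strand, separated by 3 bases. Among the 33 members with a window in the RefSeq table, 19 (57.6%) held paired GAAA, against 4.38% of 27305 genes searched in the same way. A GAS-like match, TTCNNNGAA, was in 9 (27.3%) against 9.38%, and may overlap paired GAAA, as it does in IFI27. The AP-1-like match was in 4 (12.1%) against 9.37%. The 19 members with paired GAAA had a median log2 change of 2.76 after MPS1i in SCR, and the 14 without had 2.96. Under DMSO, their medians against SCR were -1.21 and -0.86 in the STING line and -1.76 and -1.15 in DKO. These are matches of letters only.

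All 37 members rose after the MPS1i pulse in SCR, in the STING line and in the MAVS line. In DKO, 10 rose, 2 fell and 25 were not called. SLC15A3 and RTP4 are in the count of 37, but were under 1 CPM in each DMSO group. They met the threshold of the set only through treated libraries, so the rule itself favoured their rise. Their means in treated SCR were 12.6 and 14.4 CPM. The median log2 change of the members was 2.86 in SCR, 2.69 in STING, 1.98 in MAVS and 0.22 in DKO, while the median over all genes was between 0.00 and 0.03. Of all genes tested, 26.0% rose in SCR, 15.5% in STING and 17.1% in MAVS. In DKO, 6.53% rose and 8.22% fell. In SCR, STING and MAVS, both treated libraries lay above both DMSO libraries for each of the 37. In DKO they lay above for 19, below for 7 and overlapped for 11. The share of all genes separated in this way was not counted, so these library counts alone do not set the members apart.

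**Figure D1:**
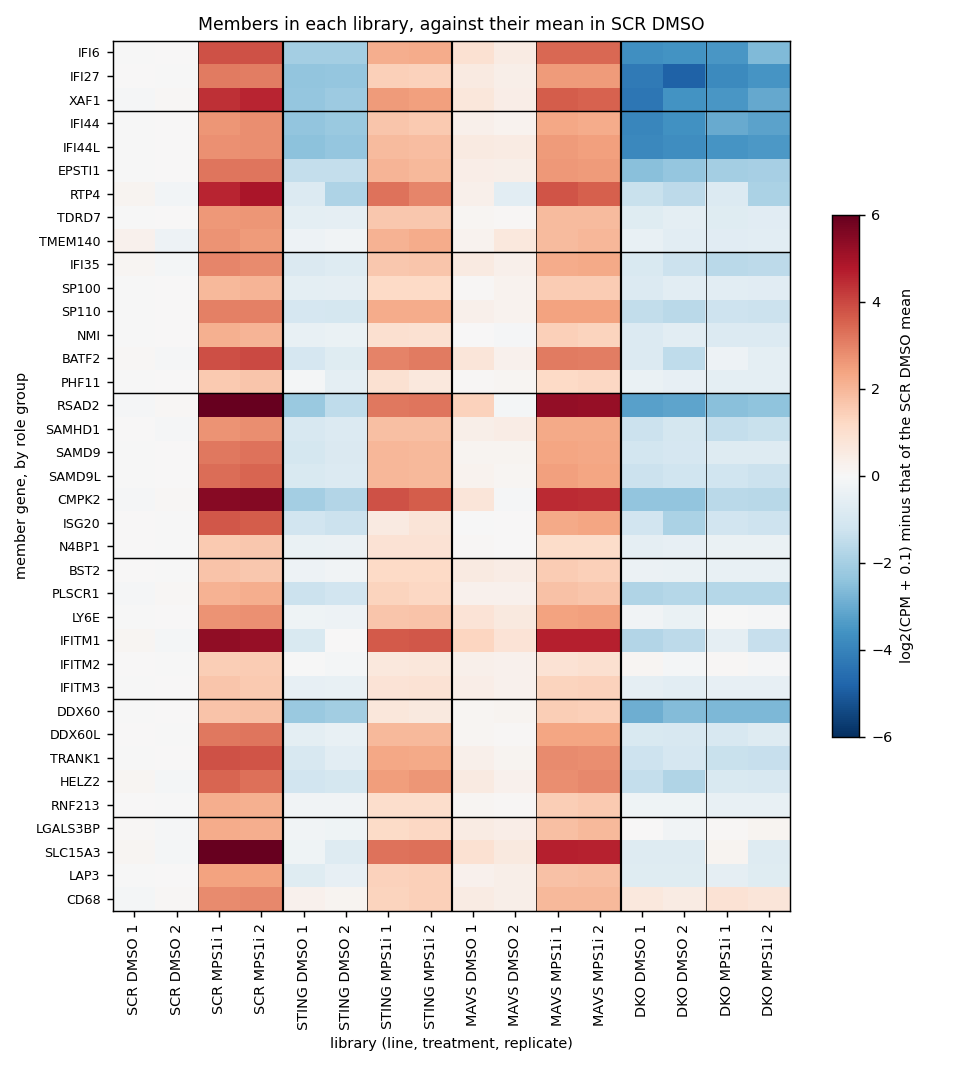
Each row is a member and each column a library, and the colour gives log2(CPM + 0.1) minus that of the mean of the 2 SCR DMSO libraries, limited to 6 in either direction, with black lines between role groups. The treated libraries of SCR, STING and MAVS are red in each row, and most DKO libraries are blue or pale in both treatments.

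The membrane proteins of this set, called the cell-surface group below, act at membranes of the cell. IFITM1, IFITM2 and IFITM3 hinder fusion of virus and host membranes, BST2 (tetherin) holds budding virus back and LY6E blocks entry of some viruses. All 6 members rose in SCR, with a median log2 change of 1.90, and in STING and MAVS, with medians of 1.72 and 1.24. IFITM1 had 2.17 and 1.88 CPM under DMSO and 84.3 and 80 CPM after MPS1i in SCR. In the STING line it had 1.03 and 2.04 CPM under DMSO and 27.4 and 27.9 CPM after MPS1i, and in the MAVS line 5.15 and 3.6 CPM under DMSO and 54.1 and 54.1 CPM after MPS1i. DKO libraries held 0.535 and 0.61 CPM under DMSO and 1.36 and 0.709 CPM after MPS1i. IFITM1 thus passed from a low to a moderate level in 3 lines, and in DKO the treated libraries lay slightly above the others without a call by edgeR (log2 change 0.93 ± 0.36, adjusted p = 0.098). DESeq2 called it (0.94, adjusted p = 0.024). LY6E had 70 and 70.1 CPM under DMSO and 461 and 476 CPM after MPS1i in SCR. The STING line held 58.2 and 56.4 CPM under DMSO and 223 and 232 CPM after MPS1i, and the MAVS line 123 and 105 CPM under DMSO and 372 and 384 CPM after MPS1i. DKO had 60.4 and 52.9 CPM under DMSO and 68.3 and 66.2 CPM after MPS1i, a rise of 0.25 ± 0.07 with no overlap between treatments. That call was lost in 3 fits, among them one of the 2 DKO groups alone (0.25, adjusted p = 0.052). Leaving out DKO DMSO replicate 2 gave 0.16 (adjusted p = 0.17) and leaving out DKO MPS1i replicate 1 gave 0.24 (adjusted p = 0.11). BST2, PLSCR1, IFITM2 and IFITM3 rose by 1.51 to 2.14 on the log2 scale in SCR.

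Enzymes acting on nucleotides and nucleic acids include RSAD2 (viperin), which makes a chain-terminating nucleotide, CMPK2, a mitochondrial nucleotide kinase, SAMHD1, which breaks down deoxynucleotides, and ISG20, an exonuclease. All 7 members grouped with them rose in SCR, STING and MAVS, with median log2 changes of 3.42, 2.84 and 2.27, and 1 rose in DKO. RSAD2 had 3.99 and 4.42 CPM under DMSO and 571 and 592 CPM after MPS1i in SCR. It had 0.821 and 1.41 CPM under DMSO and 38.4 and 39.4 CPM after MPS1i in STING, and 11.1 and 3.85 CPM under DMSO and 164 and 162 CPM after MPS1i in MAVS. DKO held 0.344 and 0.388 CPM under DMSO and 0.668 and 0.709 CPM after MPS1i. The treated levels thus fell into a wide order, SCR above MAVS above STING above DKO, with no overlap between any lines. Untreated RSAD2 was uneven in the MAVS line, where replicate 1 was well above replicate 2. CMPK2, the neighbour of RSAD2, had 4.82 and 5.2 CPM under DMSO and 223 and 231 CPM after MPS1i in SCR. Its values were 1.15 and 1.41 CPM under DMSO and 71.3 and 64.2 CPM after MPS1i in STING, and 8.33 and 4.82 CPM under DMSO and 115 and 109 CPM after MPS1i in MAVS. DKO had 0.879 and 0.888 CPM under DMSO and 1.57 and 1.51 CPM after MPS1i. CMPK2 and RSAD2 overlap on opposite strands, and the strand setting of the counting is not stated, so reads of the overlap may have been assigned to either. ISG20 had 5.49 and 5.32 CPM under DMSO and 73.1 and 67.3 CPM after MPS1i in SCR. It had 2.38 and 2.14 CPM under DMSO and 7.85 and 9.21 CPM after MPS1i in STING, and 5.37 and 5.48 CPM under DMSO and 26.1 and 27.9 CPM after MPS1i in MAVS. DKO held 2.41 and 1.39 CPM under DMSO and 2.38 and 2.22 CPM after MPS1i, and there the treatments overlapped. Treated ISG20 in STING thus lay only slightly above untreated SCR, while treated MAVS lay between STING and SCR. SAMD9, which restricts poxviruses, had 181 and 192 CPM under DMSO and 1665 and 1797 CPM after MPS1i in SCR, and 90.6 and 103 CPM under DMSO and 744 and 720 CPM after MPS1i in STING. MAVS had 209 and 206 CPM under DMSO and 964 and 921 CPM after MPS1i, and DKO 86.6 and 93.8 CPM under DMSO and 108 and 109 CPM after MPS1i. The DKO change of SAMD9, 0.26 ± 0.06, was called (adjusted p = 0.002) and was not lost when any DKO library was left out. N4BP1, an RNA-cleaving restraint on NF-κB signalling, changed less. It had 109 and 106 CPM under DMSO and 318 and 326 CPM after MPS1i in SCR, and 81.2 and 83 CPM under DMSO and 198 and 195 CPM after MPS1i in STING. MAVS held 112 and 111 CPM under DMSO and 233 and 232 CPM after MPS1i, and DKO 73.7 and 77 CPM under DMSO and 81.1 and 80.7 CPM after MPS1i. SAMHD1 and SAMD9L rose by 2.75 and 3.42 in SCR.

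Helicases and large ATPases include DDX60 and its paralog DDX60L, DExD/H-box helicases with antiviral roles, and RNF213, a giant ubiquitin ligase with an ATPase motor. The 5 members rose in SCR, STING and MAVS, with median log2 changes of 3.17, 2.81 and 2.27, while in DKO 1 rose and 1 fell. RNF213 had 935 and 906 CPM under DMSO and 4162 and 4065 CPM after MPS1i in SCR. It had 803 and 787 CPM under DMSO and 1883 and 1905 CPM after MPS1i in STING, and 1000 and 982 CPM under DMSO and 2575 and 2695 CPM after MPS1i in MAVS. DKO held 781 and 769 CPM under DMSO and 680 and 686 CPM after MPS1i. In DKO the treated libraries of RNF213 were thus below the DMSO ones, a change of -0.18 ± 0.04 (adjusted p = 0.0023). TRANK1, a large protein with ankyrin repeats, had 26.4 and 26.6 CPM under DMSO and 372 and 365 CPM after MPS1i in SCR. STING held 13.5 and 17 CPM under DMSO and 131 and 130 CPM after MPS1i, and MAVS 32.5 and 29.8 CPM under DMSO and 187 and 186 CPM after MPS1i. DKO had 11.1 and 13.3 CPM under DMSO and 10.3 and 10 CPM after MPS1i, and its treated libraries lay below the others without a call by edgeR (-0.27 ± 0.10, adjusted p = 0.061). DESeq2 called TRANK1 lower (-0.26, adjusted p = 0.049), as did edgeR with no filter on low counts (-0.28, adjusted p = 0.021) and without DKO DMSO replicate 1 (-0.38, adjusted p = 0.0075). HELZ2, a helicase described as a nuclear coactivator, had 52 and 45.2 CPM under DMSO and 540 and 486 CPM after MPS1i in SCR. STING had 21.6 and 23.4 CPM under DMSO and 273 and 310 CPM after MPS1i, and MAVS 71.7 and 57.5 CPM under DMSO and 338 and 358 CPM after MPS1i. DKO had 17.7 and 13.8 CPM under DMSO and 26 and 25 CPM after MPS1i. HELZ2 thus rose in DKO (0.72 ± 0.16), and DKO MPS1i stayed below untreated SCR. That call was lost on leaving out DKO DMSO replicate 2 (0.53, adjusted p = 0.16), DKO MPS1i replicate 1 (0.69, adjusted p = 0.11) or DKO MPS1i replicate 2 (0.75, adjusted p = 0.059).

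Nuclear body and transcription proteins include SP100 and SP110 of PML bodies, the bZIP factor BATF2, the PHD finger protein PHF11, and NMI and IFI35, which bind each other. All 6 rose in SCR, STING and MAVS, with median log2 changes of 2.49, 2.12 and 1.60, and in DKO 2 rose and 1 fell. BATF2 changed most, from 3.49 and 3.09 CPM under DMSO and 50.1 and 53.3 CPM after MPS1i in SCR. STING had 1.6 and 1.95 CPM under DMSO and 26.6 and 29.7 CPM after MPS1i, and MAVS 5.44 and 4.01 CPM under DMSO and 29.4 and 28.7 CPM after MPS1i. DKO had 1.8 and 1.08 CPM under DMSO and 2.64 and 2.17 CPM after MPS1i. Treated BATF2 libraries of STING and MAVS thus overlapped, and their difference was not called (-0.04 ± 0.10). IFI35 had 15.7 and 13.5 CPM under DMSO and 112 and 106 CPM after MPS1i in SCR. It had 7.84 and 8.46 CPM under DMSO and 44.3 and 46.8 CPM after MPS1i in STING, and 21.5 and 18.1 CPM under DMSO and 69 and 71.2 CPM after MPS1i in MAVS. DKO held 7.65 and 5.91 CPM under DMSO and 4.76 and 4.87 CPM after MPS1i. IFI35 thus moved up in 3 lines and fell in DKO by 0.48 on the log2 scale. Its fall was not called on leaving out DKO DMSO replicate 1 (-0.30, adjusted p = 0.17), DKO MPS1i replicate 1 (-0.45, adjusted p = 0.17) or DKO MPS1i replicate 2 (-0.48, adjusted p = 0.079). SP100 had 112 and 115 CPM under DMSO and 433 and 474 CPM after MPS1i in SCR, and 74.5 and 79 CPM under DMSO and 260 and 256 CPM after MPS1i in STING. MAVS had 121 and 133 CPM under DMSO and 328 and 329 CPM after MPS1i, and DKO 64.8 and 73.1 CPM under DMSO and 73.4 and 71.3 CPM after MPS1i, where treatments overlapped. Treated SP100 thus ranked SCR, MAVS, STING and then DKO, without overlap. SP110 had 33.1 and 33.8 CPM under DMSO and 270 and 272 CPM after MPS1i in SCR, and 16.6 and 15.8 CPM under DMSO and 159 and 158 CPM after MPS1i in STING. MAVS had 41.6 and 38.3 CPM under DMSO and 180 and 179 CPM after MPS1i, and DKO 12 and 11 CPM under DMSO and 14.3 and 13.6 CPM after MPS1i. Treated SP110 was lower in STING than in MAVS by a small step (-0.18 ± 0.05), a call lost without any 1 of the 4 libraries compared (adjusted p from 0.08 to 0.11). NMI had 28.6 and 29.3 CPM under DMSO and 126 and 120 CPM after MPS1i in SCR, and 21.4 and 21.7 CPM under DMSO and 57.3 and 54.2 CPM after MPS1i in STING. MAVS had 29.6 and 27.9 CPM under DMSO and 77.1 and 72.6 CPM after MPS1i, and DKO 16.1 and 18.7 CPM under DMSO and 16.6 and 16.5 CPM after MPS1i. NMI thus overlapped between treatments in DKO. PHF11 had 10.8 and 11 CPM under DMSO and 32.2 and 34.3 CPM after MPS1i in SCR. STING had 10.2 and 7.29 CPM under DMSO and 20.3 and 17.1 CPM after MPS1i, and MAVS 11.4 and 11.9 CPM under DMSO and 25.4 and 25.7 CPM after MPS1i. DKO had 8.14 and 7.71 CPM under DMSO and 7.2 and 7.14 CPM after MPS1i, where the treated libraries lay below the others without a call (-0.14 ± 0.13).

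IFI6, IFI27 and XAF1 form a small group of membrane and mitochondrial proteins tied to cell death, in which XAF1 antagonises the apoptosis inhibitor XIAP. The 3 members had the highest role-group median change in SCR, 3.83, and in STING, 4.25, with 2.69 in MAVS. IFI6 had 47.1 and 48.4 CPM under DMSO and 682 and 678 CPM after MPS1i in SCR. It had 11.4 and 11.6 CPM under DMSO and 216 and 221 CPM after MPS1i in STING, and 89.8 and 68.2 CPM under DMSO and 515 and 514 CPM after MPS1i in MAVS. DKO held 3.63 and 3.94 CPM under DMSO and 4.09 and 7.52 CPM after MPS1i. IFI6 was thus lower in STING than in SCR in both treatments, and treated IFI6 in MAVS was 75.6% of SCR, a difference that was not called (-0.40 ± 0.13, adjusted p = 0.066). It was called lower with at least 1 CPM in at least 2 libraries as the filter (-0.41, adjusted p = 0.048) and in a fit of only the groups compared (-0.40, adjusted p = 1.9e-08). XAF1 had 11.3 and 12.7 CPM under DMSO and 255 and 283 CPM after MPS1i in SCR. STING had 2.34 and 2.53 CPM under DMSO and 71.3 and 67.2 CPM after MPS1i, and MAVS 19.4 and 15.6 CPM under DMSO and 150 and 142 CPM after MPS1i. DKO had 0.497 and 0.916 CPM under DMSO and 0.958 and 1.32 CPM after MPS1i, so that treated XAF1 stood at 0.424% of SCR there. In the other 3 lines both treated libraries of XAF1 lay well above the DMSO ones. IFI27, a small hydrophobic protein, had 30.4 and 28.8 CPM under DMSO and 259 and 249 CPM after MPS1i in SCR. STING had 5.71 and 5.79 CPM under DMSO and 80.5 and 76.2 CPM after MPS1i, and MAVS 42.5 and 37.3 CPM under DMSO and 177 and 174 CPM after MPS1i. DKO had 1.49 and 0.916 CPM under DMSO and 2.03 and 2.46 CPM after MPS1i. IFI27 rose in DKO by 0.92 ± 0.21 from a level near 1 CPM, a rise that was 0.56 (adjusted p = 0.16) without DKO DMSO replicate 2.

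Cytoplasmic members of less settled role were IFI44 and IFI44L, EPSTI1, the chaperone RTP4, the tudor protein TDRD7 and TMEM140. All 6 rose in SCR, STING and MAVS. Their median log2 change was larger in STING, 3.71, than in SCR, 2.74, or MAVS, 2.01. IFI44L had 92.1 and 97.4 CPM under DMSO and 635 and 651 CPM after MPS1i in SCR. It had 16.9 and 18.9 CPM under DMSO and 353 and 340 CPM after MPS1i in STING, and 137 and 135 CPM under DMSO and 556 and 519 CPM after MPS1i in MAVS. DKO held 6.46 and 7.02 CPM under DMSO and 8.01 and 8.6 CPM after MPS1i. Untreated IFI44L was thus far lower in STING and DKO than in SCR and MAVS. IFI44 had 47.3 and 48.5 CPM under DMSO and 300 and 333 CPM after MPS1i in SCR. Its values were 9.07 and 10.1 CPM under DMSO and 151 and 143 CPM after MPS1i in STING, and 58.6 and 55.5 CPM under DMSO and 243 and 226 CPM after MPS1i in MAVS, and 3.06 and 3.75 CPM under DMSO and 5.72 and 5.06 CPM after MPS1i in DKO. Both genes were thus low in STING under DMSO, climbed past untreated SCR after MPS1i and stayed below treated SCR. RTP4 had 0.507 and 0.376 CPM under DMSO and 12.9 and 15.9 CPM after MPS1i in SCR. It had 0.205 and 0.0486 CPM under DMSO and 5.03 and 4.05 CPM after MPS1i in STING, and 0.577 and 0.254 CPM under DMSO and 7.42 and 6.38 CPM after MPS1i in MAVS. DKO held 0.115 and 0.0832 CPM under DMSO and 0.203 and 0.0473 CPM after MPS1i. RTP4 had few counts in the DMSO groups, such as 5 and 1 in STING and 3 and 3 in DKO. EPSTI1, TDRD7 and TMEM140 rose by 3.22, 2.62 and 2.63 in SCR, and TMEM140 overlaps CYREN on the opposite strand.

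Lysosomal, secreted and peptide-handling members were SLC15A3, a lysosomal transporter of peptides and histidine, the lysosomal glycoprotein CD68, the aminopeptidase LAP3 and the secreted galectin-binding protein LGALS3BP. All 4 rose in SCR, STING and MAVS, with median log2 changes of 2.64, 1.73 and 1.51. SLC15A3 had 0.0811 and 0.0578 CPM under DMSO and 13.5 and 11.7 CPM after MPS1i in SCR. It had 0.041 and 0 CPM under DMSO and 1.52 and 1.59 CPM after MPS1i in STING, and 0.216 and 0.152 CPM under DMSO and 4.14 and 4.12 CPM after MPS1i in MAVS. In DKO it had 0 and 0 counts under DMSO and 3 and 0 after MPS1i, so that both treatments were at or under the 3 counts that a count of 0 allows and no fold is given. Its SCR DMSO libraries held only 4 and 2 counts, and TMEM132A overlaps it on the opposite strand. LGALS3BP had 122 and 108 CPM under DMSO and 543 and 526 CPM after MPS1i in SCR. STING had 98.4 and 97.6 CPM under DMSO and 254 and 270 CPM after MPS1i, and MAVS 161 and 153 CPM under DMSO and 402 and 437 CPM after MPS1i. DKO had 116 and 99.1 CPM under DMSO and 122 and 128 CPM after MPS1i. LGALS3BP rose in DKO by 0.22 ± 0.07, which became 0.11 on leaving out DKO DMSO replicate 2, 0.26 for DKO MPS1i replicate 1 and 0.20 for DKO MPS1i replicate 2, and was not called in these 3 fits. CD68 had 70.1 and 80 CPM under DMSO and 529 and 556 CPM after MPS1i in SCR. It had 89.4 and 84.8 CPM under DMSO and 192 and 204 CPM after MPS1i in STING, and 107 and 94.3 CPM under DMSO and 289 and 292 CPM after MPS1i in MAVS. DKO held 116 and 104 CPM under DMSO and 135 and 125 CPM after MPS1i. Untreated CD68 was thus higher in DKO than in SCR, unlike the other members. CD68 is widely used as a macrophage marker, and other leukocyte genes were low. PTPRC, CD3E, CSF1R and TYROBP were at or near 0 in all groups, while group means reached 1.47 CPM for ITGAM, 0.923 for CD14 and 0.574 for LYZ. LYZ rose in SCR (1.48 ± 0.52), STING (2.04 ± 0.70) and MAVS (1.83 ± 0.63), and CD14 rose in STING (1.90 ± 0.51). Their part in the result was not tested.

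**Figure D2:**
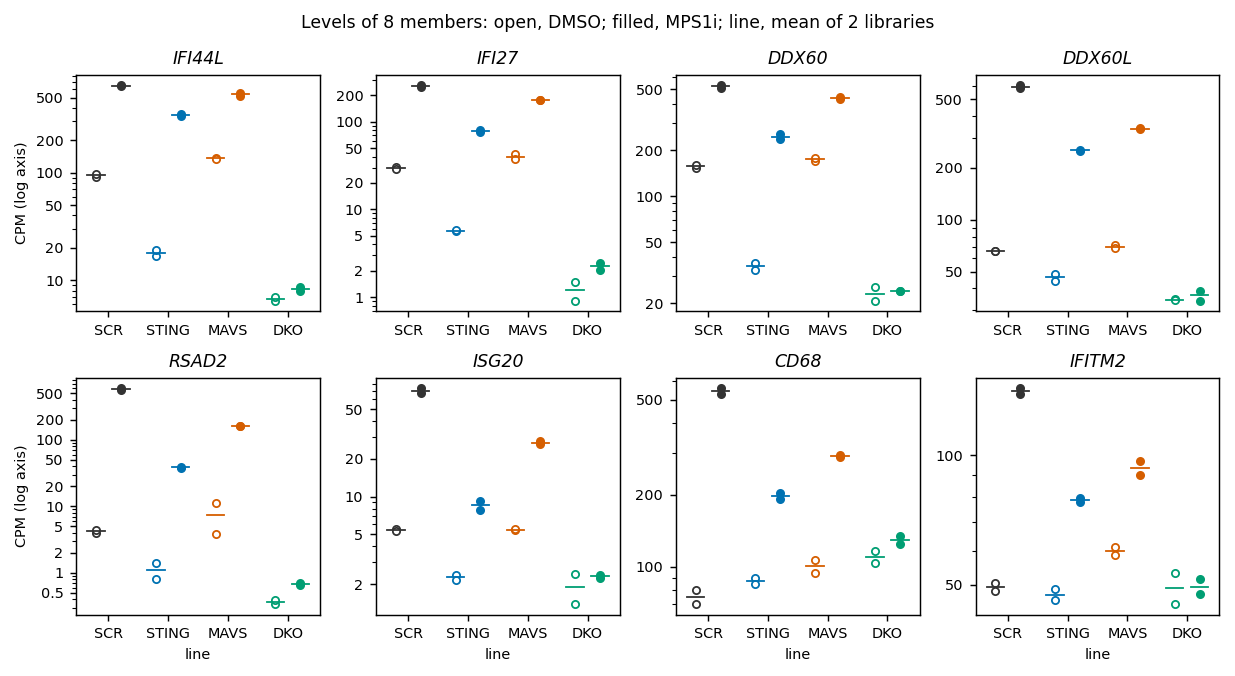
CPM on a log axis for 8 members in each line, with open points for the 2 DMSO libraries, filled points for the 2 MPS1i libraries and a short line at their mean, each panel with its own scale. IFI44L, IFI27 and DDX60 start low in STING under DMSO, DDX60L much less so, and CD68 has its DKO DMSO points above those of SCR.

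Under DMSO, 29 members were lower in the STING line than in SCR, none was higher (edgeR, 1 at an unadjusted p under 0.05, and 1 by DESeq2) and 8 were not called, where 5.47% of all genes were lower. The median log2 difference was -0.88, and levels were at a median of 54.3% of SCR. IFI44L differed most (-2.41 ± 0.06), followed by IFI27 (-2.37 ± 0.10), IFI44 (-2.33 ± 0.08) and XAF1 (-2.29 ± 0.16). The members not called were RSAD2, RTP4, IFITM1, IFITM2, SLC15A3, TMEM140, PHF11 and CD68. CD68 alone lay above 0 (0.22 ± 0.07, adjusted p = 0.063), and it was called higher by DESeq2 (0.21, adjusted p = 0.031). RSAD2 had a difference of -1.93 ± 0.57 with a wide error and was called lower by DESeq2 (-1.93, adjusted p = 0.00061). Among the 29, calls of LGALS3BP, BATF2, BST2 and LY6E depended on single libraries. LGALS3BP stood at -0.14 without SCR DMSO replicate 1. BATF2 and BST2 were at -0.77 and -0.22 without STING DMSO replicate 1, and LY6E at -0.27 without STING DMSO replicate 2. The cell-surface group had the smallest median difference of the role groups, -0.37, and the IFI6, IFI27 and XAF1 group the largest, -2.29.

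MAVS differed from STING in direction under DMSO. Of the members, 19 were higher in the MAVS line than in SCR, none was lower (edgeR, 0 at an unadjusted p under 0.05, and 0 by DESeq2) and 18 were not called, where 3.98% of all genes were higher. The median log2 difference was 0.33, and levels were at a median of 126% of SCR. The 6 cell-surface members were all higher, among them LY6E (0.70 ± 0.06) and BST2 (0.51 ± 0.05). None of the 5 helicase members was called by edgeR in the main fit. DESeq2 called TRANK1 (0.23, adjusted p = 0.033) and HELZ2 (0.40, adjusted p = 0.047) higher. TRANK1 was also called by edgeR with no filter on low counts (0.23, adjusted p = 0.021). MAVS DMSO replicate 1 was above replicate 2 for 30 of the 37 members, and without it 9 members were called higher. These were IFI27, IFI44L, BST2, SAMHD1, LY6E, LGALS3BP, IFITM3, LAP3 and CD68. Calls of IFI6 (0.74 ± 0.14) and of the cell-surface members IFITM1 (1.13 ± 0.20), IFITM2 and PLSCR1 were among those lost. These 4 members stood at 0.52, 0.82, 0.25 and 0.26 in that fit. RTP4, NMI, ISG20 and N4BP1 had the lowest differences, between -0.04 and 0.05, and none was called.

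DKO lay lowest under DMSO. There 34 members were lower than in SCR, 1 was higher and LGALS3BP and IFITM2 were not called, where 15.3% of all genes were lower and 15.8% higher. The median log2 difference was -1.17, and levels were at a median of 44.1% of SCR. IFI27 (-4.67 ± 0.12), XAF1, IFI44L (-3.80 ± 0.07) and IFI44 (-3.79 ± 0.09) were, in this order, the most lowered among members with counts in both groups. For SLC15A3 the call rests on 4 and 2 counts in the SCR libraries against 0 in both DKO libraries, and it was not made by DESeq2 (adjusted p = 0.073). It was also lost without SCR DMSO replicate 1, DKO DMSO replicate 1 or DKO DMSO replicate 2 (adjusted p from 0.12 to 0.16). CD68 was the member that was higher, by 0.55 ± 0.07. Of the members, 28 were lower in both the STING and the DKO line, which were set against the same SCR libraries. The share of all genes lower in both lines was not counted.

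After MPS1i, all 37 members were lower in STING than in SCR and all 37 were lower in DKO, where 17.3% and 22.4% of all genes were lower. In MAVS, 36 were lower, where 8.47% of all genes were, and IFI6, called lower in 2 of the alternative fits, was not. These counts include SLC15A3 and RTP4, which met the threshold of the set only through treated libraries. In MAVS, calls of BST2, HELZ2 and PHF11 depended on single libraries. BST2 stood at -0.16 without MAVS MPS1i replicate 2 and HELZ2 at -0.49 without SCR MPS1i replicate 1. PHF11 stood at -0.35 without SCR MPS1i replicate 2. In STING the call of TMEM140 was lost without STING MPS1i replicate 1 (-0.41). Levels in STING were at a median of 46.5% of SCR, from 6.69% for RSAD2 to 72.1% for BST2. The MAVS line kept a median of 64.5%, from 28% for RSAD2 to 87.4% for BST2. DKO kept 5.14%, from 0.118% for RSAD2 to 35.1% for IFITM2. The same genes thus marked the ends of the STING and MAVS ranges. Set directly against MAVS, the treated STING line was lower for 34 members with a median of -0.51, where 5.83% of all genes were lower, and HELZ2, BATF2 and TMEM140 were not called. RSAD2 (-2.07 ± 0.20), ISG20 (-1.66 ± 0.11) and SLC15A3 (-1.40 ± 0.21) differed most. RTP4 is among the 34 but was not called by DESeq2 (-0.60, adjusted p = 0.11).

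**Figure D3:**
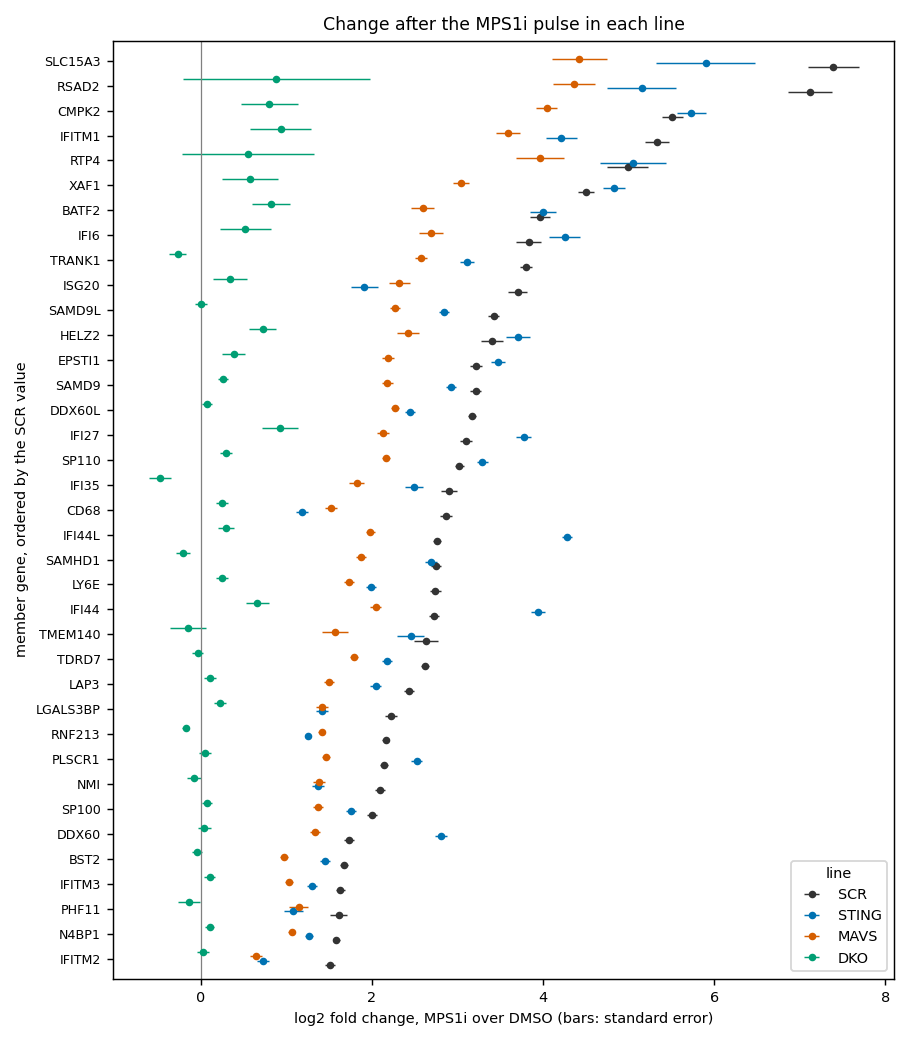
Log2 fold change of MPS1i over DMSO for each member, with bars for the standard error and 1 point per line, ordered by the SCR value. SLC15A3 in DKO is left out because both groups were at or under the counting floor. Green DKO points lie near 0, orange MAVS points lie left of the SCR points, and blue STING points lie on either side of them.

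The fold change itself was compared between lines by interaction terms. Between STING and SCR it went both ways, with 6 members changed more in STING, 20 changed less and 11 not called, where 9.97% and 9.55% of all genes had a larger or smaller value. The 6 were IFI44L (1.51 ± 0.08), IFI44 (1.22 ± 0.10), DDX60 (1.08 ± 0.09), IFI27 (0.67 ± 0.12), PLSCR1 (0.38 ± 0.08) and SP110 (0.27 ± 0.08). All 6 were also lower in STING than in SCR under DMSO and after MPS1i, and these comparisons share libraries. DDX60 showed this in its values, at 153 and 161 CPM under DMSO and 513 and 531 CPM after MPS1i in SCR, and 33.1 and 36.6 CPM under DMSO and 254 and 236 CPM after MPS1i in STING. SP110's larger change was not called when any 1 of 5 libraries was left out, for example 0.24 (adjusted p = 0.11) without STING DMSO replicate 2. The other 4 losses came without SCR DMSO replicate 2, either SCR MPS1i library or STING MPS1i replicate 1, with adjusted p from 0.053 to 0.066. Among the 20 with a smaller change, ISG20 (-1.78 ± 0.22), CD68 (-1.67 ± 0.10), IFITM1 (-1.12 ± 0.30) and RNF213 (-0.91 ± 0.06) stood farthest out. For IFITM1 the value was -0.58 (adjusted p = 0.32) without STING DMSO replicate 2. RSAD2 had the lowest value, -1.97 ± 0.79, which was not called by edgeR and was called by DESeq2 (-1.98, adjusted p = 0.0084). BST2 (-0.22 ± 0.08), one of the 20, was not called by DESeq2 (-0.22, adjusted p = 0.062). Nor was it called with no filter on low counts or in a fit of only the groups compared. Calls of IFI35 and SP100 also depended on single libraries, at -0.31 without SCR DMSO replicate 2 and -0.20 without SCR MPS1i replicate 2.

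In MAVS the change was smaller than in SCR for 36 members, with a median of -0.97, where 4.52% of all genes had a smaller value. RTP4 was not called (-1.03 ± 0.47). No member had a larger change (edgeR, 0 at an unadjusted p under 0.05, and 0 by DESeq2), and values ran from -2.97 for SLC15A3, which had few untreated counts, to -0.41 for DDX60. The 20 members with a smaller change in STING were all among the 36. Both terms use the same SCR libraries, and the share of all genes with a smaller change in both lines was not counted. PHF11 (-0.48 ± 0.14) was not called when any 1 of its 8 libraries was left out, with values from -0.44 to -0.52. Without MAVS DMSO replicate 1, SLC15A3 was not called either (-2.66, adjusted p = 0.22).

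Set directly against each other, the change was smaller in MAVS than in STING for 23 members and larger for none (edgeR, 2 at an unadjusted p under 0.05, and 2 by DESeq2), with a median of -0.67, where 1.96% of all genes had a smaller value. IFI44L (-2.29 ± 0.08), IFI44 (-1.90 ± 0.10), XAF1 (-1.79 ± 0.18) and CMPK2 (-1.69 ± 0.27) were the most negative. ISG20 (0.41 ± 0.22), CD68 (0.34 ± 0.10), RNF213 (0.16 ± 0.06) and PHF11 (0.06 ± 0.16) were the most positive, and none of these 4 was called. DESeq2 called CD68 (0.34, adjusted p = 0.015) and RNF213 (0.16, adjusted p = 0.027). Among the 23, calls of IFITM3 and TMEM140 depended on single libraries, at -0.21 without MAVS DMSO replicate 1 and -0.67 without MAVS DMSO replicate 2. So did those of IFI35 and SP100, at -0.53 without MAVS DMSO replicate 1 and -0.30 without MAVS DMSO replicate 2. Calls of TDRD7 and TRANK1 were lost without STING DMSO replicate 1, at -0.33 and -0.37. CMPK2 was not called by edgeR in a fit of only the groups compared (-1.68, adjusted p = 0.085). Fold change and treated level thus ranked the STING and MAVS lines in opposite order for many members, since 34 had a lower treated level in STING while 23 had a smaller fold change in MAVS.

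In DKO the change was smaller than in SCR for 36 members, with a median of -2.68, where 14.5% of all genes had a smaller value. Of the 10 members that rose in DKO, IFI27, IFI44, IFI44L, SAMD9, LY6E, SP110, LGALS3BP, HELZ2, BATF2 and CD68, the largest change was 0.92 ± 0.21 for IFI27 and the smallest 0.22 ± 0.07 for LGALS3BP. SAMD9 was the 1 member of these called in every alternative run. Without DKO DMSO replicate 2 only IFI44 and SAMD9 were called higher, and without DKO MPS1i replicate 1 only IFI27, SAMD9 and IFI6. A fit of the 2 DKO groups alone called 4 (IFI44, SAMD9, HELZ2 and CD68). IFI44L (0.29 ± 0.09) was not called when any 1 of the 4 DKO libraries was left out, with values from 0.23 to 0.35. Treated DKO levels of these members stayed below untreated SCR for 8 of the 10, while LGALS3BP and CD68 had both treated DKO libraries at or above the highest untreated SCR library. For RSAD2 the smaller change (-6.24 ± 1.53) was not called without DKO DMSO replicate 1 (adjusted p = 0.067) or 2 (adjusted p = 0.13). RNF213 and IFI35 fell in DKO while they rose in SCR, with differences between the lines of -2.34 ± 0.06 and -3.37 ± 0.16. The fall of IFI35 in DKO was not called in a fit of the 2 DKO groups alone (-0.49).

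If losing STING and losing MAVS each took a fixed amount off the log2 change, DKO would be expected at the STING change plus the MAVS change minus the SCR change. That expectation had a median of 1.81 and was above 0 for 35 members, from -0.15 for CD68 to 4.27 for CMPK2. The measured DKO change was below it for 28 members at an adjusted p under 0.05, above it for none (edgeR, 1 at an unadjusted p under 0.05, and 0 by DESeq2) and not told apart for 9, with a median difference of -1.54. Of all genes tested, 0.713% lay below their expectation. CMPK2 (-3.46 ± 0.47), IFI44L (-3.21 ± 0.13) and XAF1 (-2.80 ± 0.41) were farthest below, and RTP4 was as far (-3.46 ± 1.11) but not called. Without DKO DMSO replicate 2, CMPK2 was at -3.45 (adjusted p = 0.052) and XAF1 at -2.23 (adjusted p = 0.1), neither of them called. The calls of IFI6 (-2.59 ± 0.41) and TMEM140 (-1.53 ± 0.34) were lost without most single libraries, with adjusted p up to 0.14 and 0.12. The members not told apart were RSAD2, RTP4, LGALS3BP, ISG20, IFITM1, IFITM2, SLC15A3, PHF11 and CD68. For ISG20 and IFITM2 the differences were small (-0.19 ± 0.31 and 0.16 ± 0.13), and for RSAD2 the error was wide (-1.51 ± 1.37). Without MAVS DMSO replicate 1, RSAD2 was called at -2.53 (adjusted p = 0.0012), and without STING DMSO replicate 2, IFITM1 at -2.08 (adjusted p = 0.04). By role, 5 of 5 helicase members, 3 of 3 of the IFI6, IFI27 and XAF1 group and 1 of 4 lysosomal and secreted members were below expectation. Of these 4, SLC15A3 was at the counting floor in DKO, and CD68 and LGALS3BP had low expectations, -0.15 and 0.62. With no filter on low counts, edgeR called LGALS3BP below expectation (-0.41, adjusted p = 0.014) and CD68 above it (0.39, adjusted p = 0.034). The role groups were thus not equally open to such a call.

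**Figure D4:**
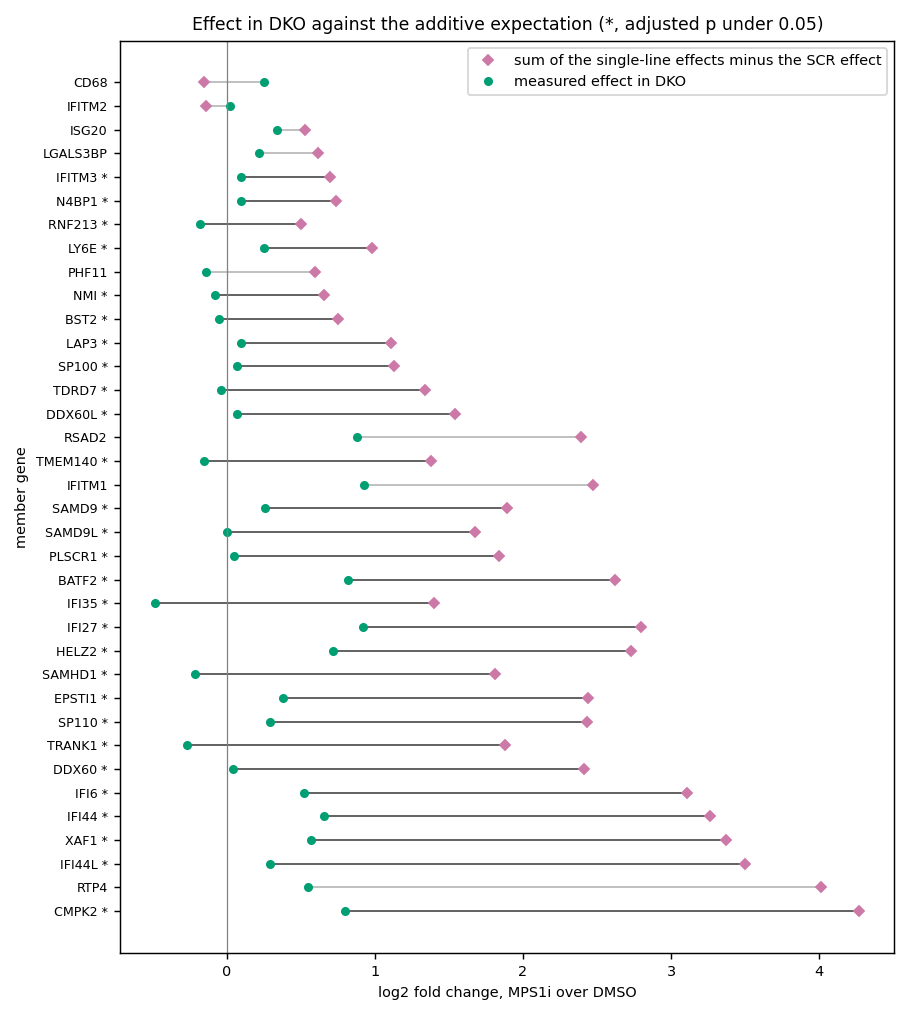
For each member, the measured log2 change in DKO (green circle) and the change expected if the STING and MAVS losses added on the log2 scale (pink diamond), ordered by their distance, with a star for an adjusted p under 0.05. SLC15A3 is left out because its DKO groups were at or under the counting floor. Green circles sit near 0 throughout, while the diamonds spread from -0.15 to 4.27.

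Related members sit side by side in the genome and did not always respond alike. Levels of different genes are compared here per kilobase of exon in the GENCODE annotation, and coordinates are those of the count table on GRCh38. IFI44L (chr1:78619902-78646145) and IFI44 (chr1:78649796-78664078) moved closely together. Their level per kilobase was 9.25 and 23.5 CPM in SCR under DMSO, 62.8 and 155 after MPS1i, and 1.75 and 4.7 in STING under DMSO. DDX60 (chr4:168216291-168318883) and DDX60L (chr4:168356735-168537786), whose promoters are printed above, behaved differently. DDX60 was the more abundant per kilobase in untreated SCR, 23.3 against 5.42, and stood at 5.17 in untreated STING against 3.83. DDX60L libraries had 66 and 65.7 CPM under DMSO and 583 and 603 CPM after MPS1i in SCR, and 44.4 and 48.7 CPM under DMSO and 254 and 252 CPM after MPS1i in STING. Those of DDX60L in MAVS had 71 and 68.8 CPM under DMSO and 340 and 335 CPM after MPS1i, and in DKO 34.6 and 34.2 CPM under DMSO and 34 and 38.8 CPM after MPS1i. DDX60 had 171 and 178 CPM under DMSO and 444 and 429 CPM after MPS1i in MAVS, and 20.8 and 25.4 CPM under DMSO and 24.1 and 24 CPM after MPS1i in DKO. DDX60 thus rose less than DDX60L in SCR (1.73 ± 0.06 against 3.17 ± 0.05) and more in STING (2.81 ± 0.07 against 2.44 ± 0.06), and the 2 interaction terms had opposite signs, 1.08 ± 0.09 and -0.73 ± 0.08. DDX60L overlaps PALLD on the opposite strand.

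SAMD9 (chr7:93099513-93118023) and SAMD9L (chr7:93130056-93148385) kept a similar order in all groups, with SAMD9 the higher per kilobase (27.2 against 5.96 CPM in untreated SCR and 253 against 63.8 after MPS1i). SP100 (chr2:230415942-230545606) was the higher of its pair in untreated SCR (9 against 4.87 for SP110, chr2:230165186-230225729) and the 2 were nearly level after MPS1i (35.9 against 39.5). The IFITM genes lie in a cluster on chromosome 11 and may share reads, so their separate values are less certain. IFITM3 (chr11:319676-329475) was highest per kilobase in untreated SCR at 63.2, then IFITM2 (chr11:303655-309397) at 31.9 and IFITM1 (chr11:310041-315272) at 1.87. IFITM2 had the smallest change of the 37 members in SCR (1.51 ± 0.06), STING (0.73 ± 0.07) and MAVS (0.64 ± 0.07). Its libraries held 50.3 and 48.3 CPM under DMSO and 139 and 143 CPM after MPS1i in SCR, 48.7 and 45.9 CPM under DMSO and 77.7 and 79.4 CPM after MPS1i in STING, and 61.1 and 58.6 CPM under DMSO and 90 and 96.7 CPM after MPS1i in MAVS. In DKO it had 53.2 and 45.1 CPM under DMSO and 51.4 and 47.5 CPM after MPS1i, overlapping the untreated SCR libraries.

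Genes upstream of these members were taken from a list of 23 interferon receptors, kinases, transcription factors and inhibitors. In SCR, 20 rose and 1, the receptor subunit IFNAR1, fell (-0.20 ± 0.05). In STING 14 rose and in MAVS 16. DKO had 4 that rose, the receptor subunit IFNGR1 and the factors IRF1, IRF7 and IRF9, and 1 that fell, the kinase JAK1 (-0.13 ± 0.04). The shares of all genes that rose were 26.0% in SCR, 15.5% in STING, 17.1% in MAVS and 6.53% in DKO. In DKO 8.22% of all genes fell, and the share that fell in SCR is not given here. The factor subunit STAT2 rose by 2.70 ± 0.05 in SCR and was not called in DKO (-0.02 ± 0.05). IRF9, its partner, rose by 1.52 ± 0.07 in STING and 0.98 ± 0.06 in SCR, a difference not tested here. It stood at 30.2 ± 0.804 CPM (SD, n = 2) in untreated SCR, 16 ± 1.51 in STING and 9.09 ± 0.383 in DKO. USP18, which restrains the receptor, rose by 4.01 ± 0.08 in SCR, 4.13 ± 0.10 in STING and 2.74 ± 0.08 in MAVS, and was not called in DKO (0.24 ± 0.15). Of 7 interferon genes listed, 5 could be tested, and IFNB1, IFNL1, IFNL2 and IFNL3 rose in SCR, STING and MAVS. Treated SCR held 4.85 ± 0.293 CPM of IFNB1, 12.3 ± 0.992 of IFNL1, 17 ± 0.392 of IFNL2 and 19.6 ± 1.18 of IFNL3. Treated levels of IFNB1 and IFNL1 were 0.424 ± 0.33 and 0.978 ± 0.036 in STING, and 0.194 ± 0.0221 and 1.47 ± 0.303 in MAVS. IFNB1 had few counts there, 0 and 0 under DMSO and 5 and 19 after MPS1i in STING. In MAVS it had 1 and 0 counts under DMSO and 6 and 8 after MPS1i. IFNB1 and IFNL1 were at 0 counts in the treated DKO libraries.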

How the data were processed

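Poly(A) RNA was sequenced from 16 libraries with a stranded kit, per the labels' protocols. The deposited values are raw gene counts made by the authors, for 60612 genes, with no normalization. Trim Galore, Trimmomatic, cutadapt, STAR and featureCounts are named per the submitters' processing notes, with GRCh38. Versions and the strand setting of the counting are not given in the sources used here, so overlapping genes can share reads.

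The counts were fitted with edgeR 4.0.16 in R 4.3.3. filterByExpr (minimum count 10, minimum total 15) kept 17950 genes, which hold at least 99.93% of the counts of each library. TMM scaling, 1 mean per group and the robust quasi-likelihood F-test with 8 residual degrees of freedom gave 16 contrasts, each adjusted by Benjamini-Hochberg over all genes. Standard errors were obtained from each fold change (log2) and its F statistic. CPM values use the TMM-scaled totals. The lowest and highest totals were 19893784 and 49769938 counts.

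Comparisons with SCR share the SCR libraries. Because the origin of the libraries of a group is not stated, p-values measure the spread between libraries, which may be technical. No intervals are given for counting error. Alternatives were DESeq2 1.42.0 size factors in edgeR, DESeq2, no filter or another filter on low counts, a fit of only the groups compared, a replicate block and leaving out each library. The numbers were not used as pairs, as the correlation of deviations of same-numbered libraries over 28 pairs of groups ran from -0.13 to 0.18, with 4 over 0.1. The fit was tested on simulated counts with known changes.

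The members, role groups and other gene lists were chosen with earlier results of these data known. Values in each library were given for the member with the highest mean CPM and the one that changed most in each role group, members called in DKO, the 4 most negative and 4 most positive in the MAVS against STING comparison of changes and in each line under DMSO, and the 4 farthest from additivity. DDX60, DDX60L and IFITM2 were added as paralogs. Promoter sequences are from RefSeq.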

Additional observations from a re-analysis of the deposited data

Results flagged for a closer look

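The change after MPS1i differed between STING and SCR for 26 members by an interaction term in edgeR's quasi-likelihood test at an adjusted p under 0.05. It was larger in STING for 6 and smaller for 20, where 9.97% and 9.55% of all genes were. The change was smaller in MAVS than in SCR for 36 members (4.52% of all genes) and in DKO than in SCR for 36 (14.5%). Between MAVS and STING it was smaller in MAVS for 23 (1.96%). IFI35, at -3.37 ± 0.16, and RNF213, at -2.34 ± 0.06 on the log2 scale, differed between DKO and SCR, as both rose in SCR and fell in DKO. Of all genes, 8.22% fell in DKO. IFI35's fall there was not called by edgeR in a fit of the 2 DKO groups alone (-0.49, adjusted p = 0.074). It was -0.30 without DKO DMSO replicate 1. No group had enough libraries to look for a single one far from the others.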

How the results depend on the processing

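Over all contrasts, 6917 values of single members were recomputed under the alternatives. Of these, 6684 kept their direction and their side of the threshold, 174 lost a call, 59 gained one and 0 reversed. No call of a rise in SCR, STING or MAVS was lost in any alternative run. With the replicate block, 592 of 592 values compared kept their side, so that the block changed no call, for example 10 members higher and 2 lower in DKO. The labels give same-numbered libraries nothing in common but the number, and a shared day or batch is not known. The members higher in DKO after MPS1i were 10, and 4 in a fit of only the groups compared. Those lower were 2, and 1 in that fit. Members higher in STING under DMSO were 0, and 1 with no filter on low counts, with at least 1 CPM in at least 2 libraries, by DESeq2 or with only the groups compared. Members with a larger change in MAVS than in STING were 0, and 1 with no filter or with at least 1 CPM, but 2 by DESeq2 or with only the groups compared. Members above the additive expectation were 0, and 1 with no filter. Leaving out 1 library at a time, the members higher in DKO after MPS1i ran from 2 to 10 and those lower from 1 to 3. Those higher in MAVS under DMSO ran from 9 to 21, those higher in STING under DMSO from 0 to 1, and those with a larger change in MAVS than in STING from 0 to 1. The cause of these shifts was not tested. With 2 libraries a group, the lone library of a group is assumed to vary like the other groups when its partner is left out. Members below 10 counts under DMSO, such as SLC15A3, have wide errors.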

Other observations

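GMPR, a purine nucleotide reductase that was on the symbol list but below the level required, had 0.162 and 0.202 CPM under DMSO and 2 and 2.25 CPM after MPS1i in SCR. In STING it had 0.0821 and 0.34 CPM under DMSO and 0.419 and 0.381 CPM after MPS1i, and in MAVS 0.433 and 0.0507 CPM under DMSO and 0.655 and 0.761 CPM after MPS1i. DKO had 0.268 and 0.361 CPM under DMSO and 0.145 and 0.236 CPM after MPS1i. GMPR was thus highest in the treated SCR libraries.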
